A study of Mus musculus with 4 samples.

Results

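Potassium channel genes were followed in cultured mesenchymal cells of the mouse hair follicle. A gene was included when its symbol began with Kcn, a family letter and a number, or was Abcc8 or Abcc9, which encode the sulphonylurea receptors of the ATP-sensitive potassium (KATP) channel, and when its mean raw count over the 4 libraries was at least 10. Of 100 names in the table that matched, 39 passed this minimum, of 16734 genes that passed it and 51826 genes in all. RNA was sequenced from dermal papilla cells (DPCs), the mesenchymal cells at the base of the follicle, and from dermal sheath cells (DSCs), which line its outside. The cells came from vibrissa (whisker) follicles of mice aged 5 to 6 weeks that carried an EGFP transgene according to the methods, while the labels give the genotype as WT. Each was expanded in DMEM on plastic to passage 3 (low passage) or passage 9 (high passage), and the labels name no further treatment.

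Each of the 4 groups was 1 library, so no difference below has a replicate check. The labels give no batch, so passage cannot be told apart from when a culture was grown or a library made. Total counts lay between 34981284 and 47604059. High-passage DPCs stood apart from the other libraries: 5.58% of all tested genes had risen and 4.36% had fallen 4-fold or more since low passage, against 2.67% and 1.16% for DSCs, and the papilla gene Lef1 had 2 counts there against 508 at low passage. Comparisons without that library are those of DSCs with passage and of the cell types at passage 3. Of 10 papilla markers, 7 passed the minimum. At passage 3, 2 of these were at least 4-fold higher in DPCs than in DSCs, Sox2 and Lef1, and 0 were lower. At passage 9, Sox2 was higher, and Lef1 and Ncam1 were lower. Sox2 had 1677 and 1491 counts in the DPC libraries against 269 and 178 in the DSC libraries, whereas Ncam1 had 3642 and 1673 against 11755 and 15584, and Alpl had 23 counts or fewer in each. Krt5, Krt14, Dct and Tyr, which define keratinocytes and melanocytes, had 0 counts in all 4 libraries, while from the same marker lists Krt10 had between 33 and 61, Pmel between 17 and 47 and Mitf between 394 and 980.

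Potassium channels let potassium ions leave or enter the cell and so set its resting voltage, its volume and the driving force for calcium entry. Pore-forming subunits fall into voltage-gated (Kv, KCNQ and EAG), inward-rectifier (Kir), tandem-pore (K2P) and calcium- or sodium-activated (KCa) families, and auxiliary subunits change the gating or transport of the pores. In the hair follicle they are best known through minoxidil, a hair growth drug whose sulphated form opens KATP channels. By family, the members were 11 of 27 Kv names, 2 of 5 KCNQ, 3 of 8 EAG, 3 of 15 Kir, 5 of 14 K2P, 6 of 8 KCa, 8 of 15 auxiliary names, 0 of 2 sulphonylurea receptors and 1 of 6 other transcripts, the noncoding Kcnq1ot1.

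The KATP channel was not detected. Kcnj8 and Kcnj11, which encode its pores, and Abcc8 and Abcc9, which encode its receptors, each had 0 counts in all 4 libraries. A count of 0 allows up to 3 counts, or between 0.0658 and 0.0836 CPM (counts scaled to library size by the TMM method) in a library. That limit covers counting error only, as do all intervals below, and it doubles if both mates of a read pair were counted. Sult1a1, the sulphotransferase that activates minoxidil, had 0, 24, 2 and 14 counts. Values of the 4 libraries are listed here and below in 1 order, which is DPCs at passage 3, DPCs at passage 9, DSCs at passage 3 and DSCs at passage 9. Pericytes are a known site of Kcnj8 and Abcc9 in many tissues. Of 6 pericyte markers, Pdgfrb had between 34988 and 62810 counts, Cspg4 between 622 and 13959, Mcam between 1545 and 8208 and Notch3 between 1319 and 2560. Rgs5 had between 4 and 18, and Higd1b had 0 in all 4 libraries.

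In all, 61 names fell below the minimum, 32 of them with 0 counts in every library. The highest count of such a name in any library was 24, for Kcng2 in high-passage DPCs. Their highest mean was 9.75, for Kcnk7, and the lowest mean among the 39 genes was 10.5, for Kcnip1. The plot of counts by library shows the values by family.

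**Figure D1:**
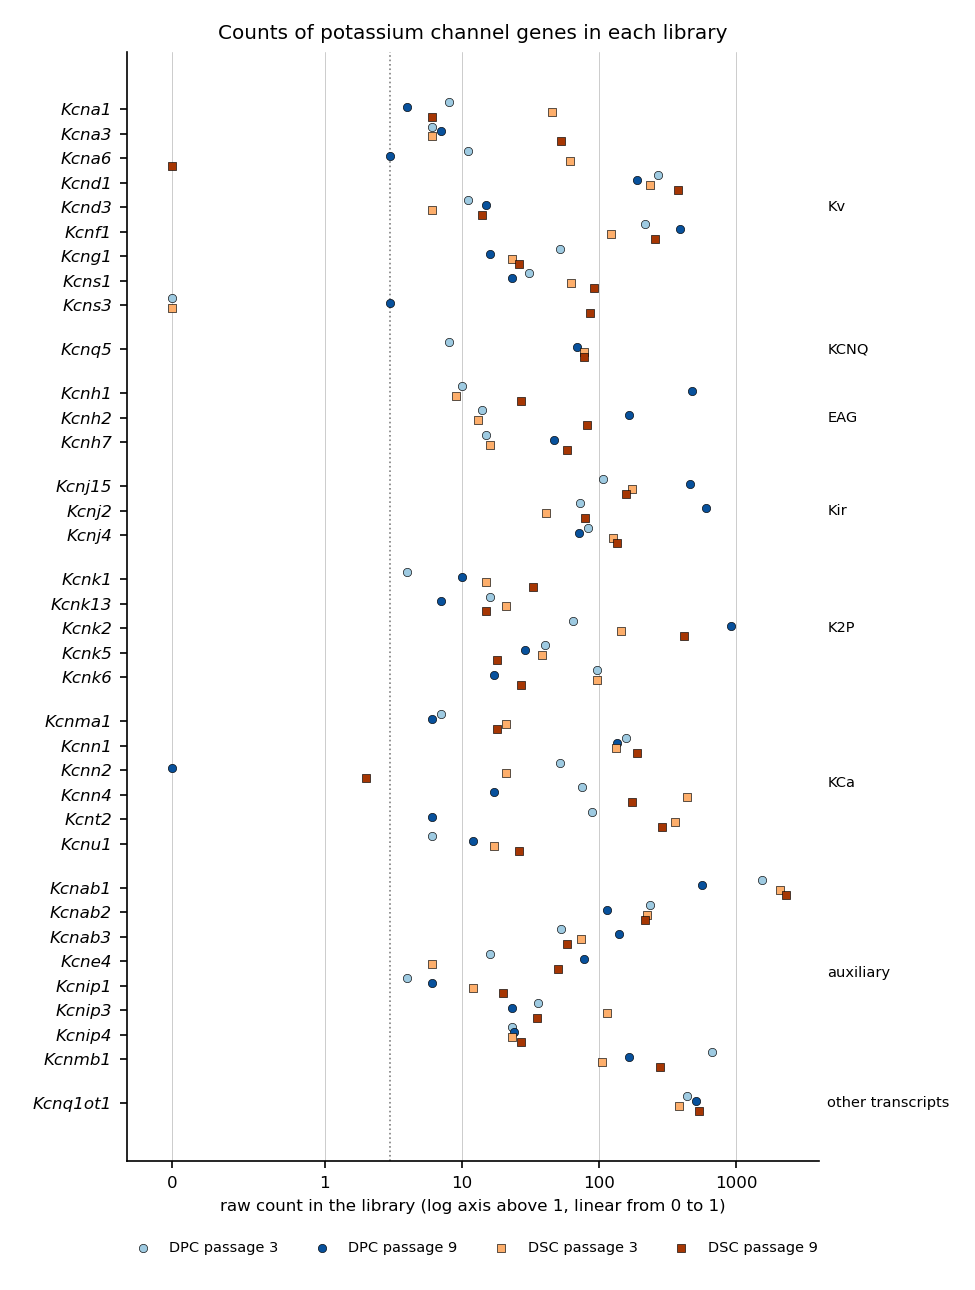
Raw count of 36 of the 39 potassium channel genes (rows, grouped by family) in each of the 4 libraries (points, with blue circles for DPCs, orange squares for DSCs and dark colours for passage 9), on an axis that is logarithmic above 1 and linear from 0 to 1. The dotted line marks 3 counts. Kcnab1 reached the highest count, 2312 in high-passage DSCs, and Kcna6, Kcnn2 and Kcns3 had 0 counts in at least 1 library.

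Levels between genes were compared on the deposited FPKM, which divides by transcript length. The most abundant transcript was Kcnab1, the beta subunit that binds Shaker-type Kv channels, at 12.1, 4.77, 14.7 and 13.5 FPKM. It ranked highest of the 39 genes in every library except high-passage DPCs, where it was second to Kcnk2. The Shaker-type pores themselves were low: Kcna1, Kcna3 and Kcna6 did not exceed 0.518 FPKM in any library, and Kcna5 had 0 counts. A similar contrast was seen for the BK channel, the large-conductance calcium-activated potassium channel. Its beta subunit gene Kcnmb1 had 3.92, 1.01, 0.569 and 1.24 FPKM. Its pore gene Kcnma1 had 0.0344, 0.0456, 0.102 and 0.0626 FPKM, from 7, 6, 21 and 18 counts. Among the other BK beta subunits, Kcnmb2 and Kcnmb4 had 8 counts or fewer in each library and Kcnmb3 had 0.

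Summed over the 30 pore-forming genes, FPKM was 11.3 and 28.2 in DPCs and 17.8 and 17.7 in DSCs at passage 3 and 9. The sum was therefore highest in the library that stood apart, while the DSC libraries were close to each other. The leading gene differed between libraries. In low-passage DPCs it was Kcnn1, a small-conductance calcium-activated channel, with 16.1% of the sum. In low-passage DSCs it was Kcnn4, the intermediate-conductance calcium-activated channel, with 29.6%. In both high-passage libraries it was Kcnk2, a tandem-pore channel gated by stretch and heat, with 33.4% in DPCs and 19.6% in DSCs. When levels were instead computed as CPM per kilobase of annotated exon, the leading gene of low-passage DPCs was Kcnd1, at 1.37, with Kcnn1 at 0.936. The leading genes of the other libraries were those found with FPKM. The plot of summed FPKM shows these shares.

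**Figure D2:**
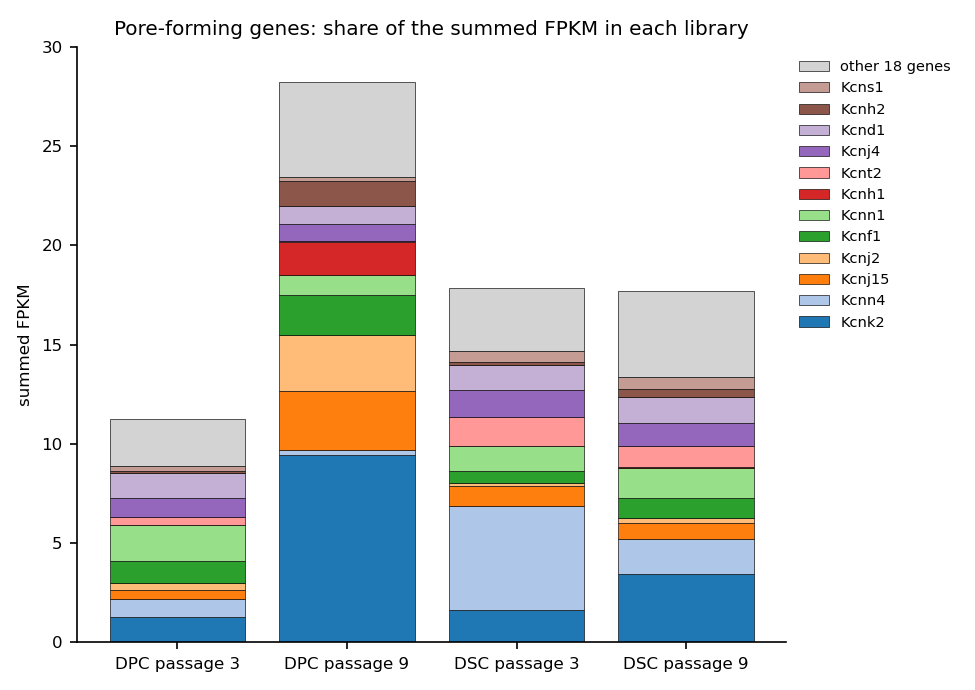
Summed FPKM of the 30 pore-forming potassium channel genes (vertical axis) in each of the 4 libraries, with 12 genes as coloured segments and the other 18 together in grey. Kcnk2 was the largest coloured segment in both passage 9 libraries, at 9.42 FPKM in DPCs and 3.47 in DSCs, and Kcnn4 in low-passage DSCs, at 5.28.

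The change between passage 3 and passage 9 was then examined in each cell type. Fold changes are differences of log2 CPM, passage 9 minus passage 3, with a prior count of 2 added, and a gene was called, and is said to rise or fall, at 4-fold or more. Smaller differences are given as values. The range in parentheses is a 95% exact binomial (Clopper-Pearson) interval from the reads of the 2 libraries, which compares those libraries and not the conditions. In DPCs, 9 of 39 genes rose 4-fold or more with passage and 4 fell as far, or 23.1% and 10.3%, where 5.58% and 4.36% of all tested genes were. In DSCs, 5 were higher and 4 lower, or 12.8% and 10.3%, against 2.67% and 1.16%. In both cell types 3 were higher, Kcne4 and Kcnh2 among them, and 2 lower, Kcnk6 and Kcnn2, against 1.27% and 0.508% of all tested genes. With a prior count of 10, 2 genes fell in DPCs, 1 rose and 1 fell in DSCs, and 0 rose and 0 fell in both, as was also found for both cell types on FPKM. With DESeq2 size factors, 1 gene fell in both. The median change of the 39 genes was 0.09 in DPCs and 0.23 in DSCs, beside 0.03 and 0.00 over all tested genes. With the genes at 0 counts set to their bound, the median in DPCs was 0.0. The genes that passed 4-fold lay on both sides of little or no shift in the middle of the list. At any size, 16 genes had a value above 0 in both cell types, 15 a value below 0 in both and 8 opposite signs. Over all tested genes, 36.0% were above 0 in both and 34.4% below.

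**Figure D3:**
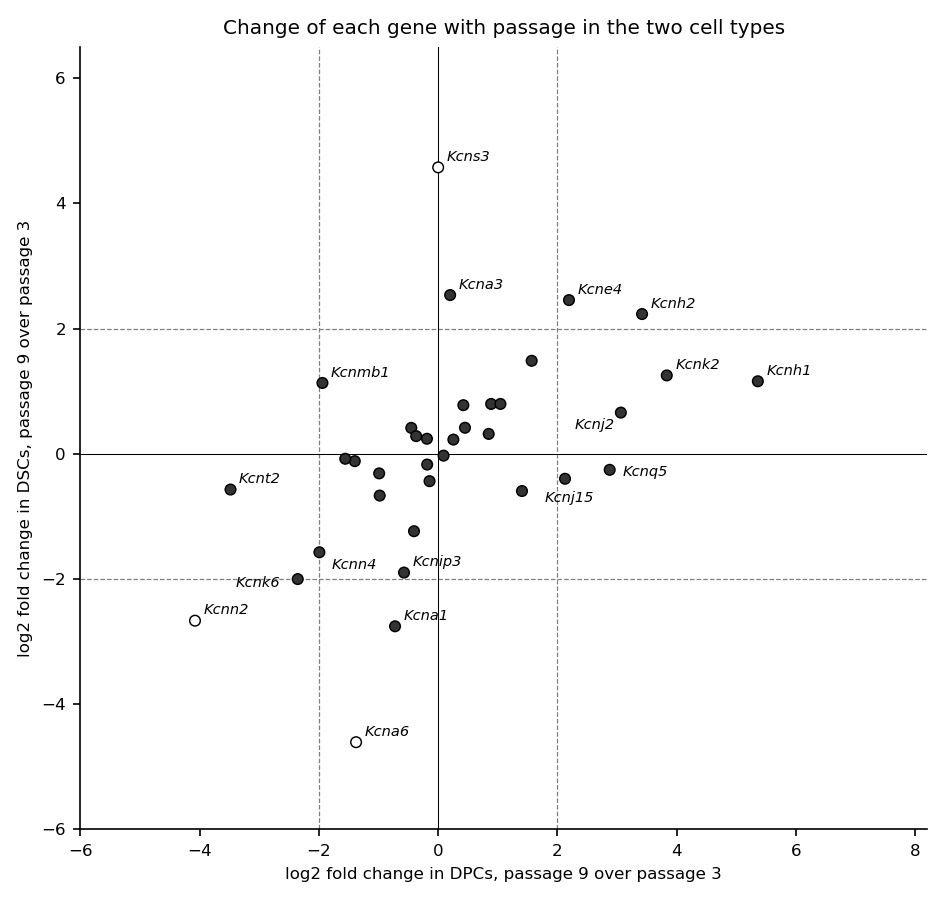
Log2 fold change of 36 of the 39 genes between passage 9 and passage 3 in DPCs (horizontal axis) and DSCs (vertical axis), with dashed lines at 4-fold. Open points had 3 counts or fewer in at least 1 library; where a library had 0 counts the point stands at its bound, and at 0 where both counts were 3 or fewer. Kcnh1 lay farthest right, at 5.36 in DPCs and 1.16 in DSCs, while Kcnmb1 was at -1.94 and 1.13.

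Of the 11 Kv members, 2 rose past 4-fold in DPCs, and 3 rose and 2 fell in DSCs. Kcnf1, a silent subunit that forms channels only together with other Kv pores, had 214, 388, 121 and 254 counts with differences of 0.89 in DPCs (0.65 to 1.14) and 0.79 in DSCs (0.49 to 1.13), below 4-fold. Kcns3, another silent partner, had 0, 3, 0 and 86 counts. It was thus seen above 3 counts only in high-passage DSCs, at least 23.9-fold higher than in low-passage DSCs, or 11.9-fold with a floor of 6 counts. The silent subunits Kcng1 and Kcns1 did not reach 4-fold in either cell type.

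Kcna3, the Shaker-type pore best known from T cells, had 6, 7, 6 and 53 counts and rose by 2.54 in DSCs (1.66 to 4.39). Its neighbours in the family went the other way. Kcna1 had 8, 4, 45 and 6 counts and fell by 2.76 in DSCs (-4.69 to -1.94). Kcna6 had 11, 3, 61 and 0 counts and was at least 24.4-fold lower in high-passage DSCs, or 12.2-fold with a floor of 6 counts. These genes lie 61944 bases apart on chromosome 6, and 39.6% of the annotated exon bases of Kcna6 are shared with Gm26673 on the opposite strand, so its counts are uncertain where strand was not used. Kcnd1, an A-type channel and the most abundant Kv pore of low-passage DPCs, had 267, 190, 234 and 375 counts and stayed within 4-fold in every comparison.

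Schwann cell genes moved with the falls of Kcna1, Kcna6 and Kcnn2. The summed level of 6 Schwann markers was 12.1, 3.65, 30.5 and 5.09 CPM. Sox10, Cdh19 and Ngfr had 0 counts in both high-passage libraries, after 28, 33 and 144 in low-passage DPCs and 116, 95 and 544 in low-passage DSCs. Of 5 endothelial markers, Pecam1, Cdh5, Tek and Kdr had fewer counts at passage 9 in both cell types, whereas Vwf had 5, 194, 91 and 10, and their summed level was 2.55, 5.52, 7.89 and 1.21 CPM. The summed level of 5 neuronal markers was 13.4, 0.920, 18.0 and 10.2 CPM. Nearly all of it was Tubb3, at 13.1, 0.920, 17.7 and 10.1 CPM. Syt1 had 12, 0, 11 and 6 counts, and Snap25, Rbfox3 and Nefl were at 0 throughout. The part of such cells in these falls was not tested, and in bulk RNA fewer cells of a type and less RNA per cell cannot be told apart.

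Of the 3 EAG members, 2 rose past 4-fold in DPCs and 1 in DSCs, and none fell. Kcnh1, at chr1:192190774-192510159 (GRCm38, plus strand), encodes the ether-a-go-go channel, which is known for its presence in tumours. It had 10, 475, 9 and 27 counts and rose by 5.36 in DPCs (4.71 to 6.68) with a difference of 1.16 in DSCs (0.19 to 2.59). The interval in DSCs included 0 when all counts were divided by 2, as for reads counted with both mates. Kcnh2, the ether-a-go-go-related channel of cardiac repolarisation, had 14, 164, 13 and 82 counts and rose by 3.42 in DPCs (2.80 to 4.49) and 2.23 in DSCs (1.54 to 3.36). On deposited FPKM its ratio in DSCs was 0.99 on the log2 scale, below 4-fold. Kcnh7 had 15, 47, 16 and 58 counts, with differences of 1.57 in DPCs (0.82 to 2.63) and 1.48 in DSCs (0.77 to 2.49). Of the KCNQ family, whose channels carry slow subthreshold currents, Kcnq5 had 8, 69, 77 and 77 counts, so that low-passage DPCs alone were low, and rose by 2.88 in DPCs (2.09 to 4.41).

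Of the 3 inward rectifiers, 2 rose past 4-fold in DPCs and 0 in DSCs. Kcnj2, at chr11:111066164-111076821 (GRCm38, plus strand), encodes a strong rectifier that holds the resting voltage near the potassium equilibrium. It had 72, 601, 41 and 79 counts and rose by 3.06 in DPCs (2.74 to 3.47) with a difference of 0.66 in DSCs (0.12 to 1.26, including 0 with halved counts). Kcnj15, a weaker rectifier, had 106, 458, 172 and 156 counts, with high-passage DPCs above the other libraries, and rose by 2.13 in DPCs (1.84 to 2.47). Kcnj4 had 83, 71, 126 and 134 counts, and its intervals included 0 in both cell types. Whether the response differed between the cell types was not tested for any gene.

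In the tandem-pore family, Kcnk2 and Kcnk6 changed in opposite directions in DPCs. Kcnk2, at chr1:189207930-189402273 (GRCm38, minus strand), had 64, 915, 144 and 415 counts. It rose by 3.83 in DPCs (3.51 to 4.26), with a difference of 1.25 in DSCs (0.98 to 1.55). On deposited FPKM its log2 ratio in DPCs was smaller, at 2.90, and still past 4-fold. Of its annotated exon bases, 12.2% are shared with A430027H14Rik on the opposite strand. Kcnk6, whose product is found in endolysosomes and at the cell surface, had 97, 17, 96 and 27 counts, with the low-passage libraries nearly equal. It fell by 2.36 in DPCs (-3.31 to -1.72) and by 2.0 in DSCs (-2.77 to -1.47), the latter close to the threshold. Kcnk1, Kcnk5 and Kcnk13 did not reach 4-fold in either cell type.

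The 300 bases around the annotated start are given for 3 of the genes that rose in DPCs, Kcnk2, Kcnh1 and Kcnj2, and for Kcnmb1, whose differences had opposite signs in the cell types. The sequences are from RefSeq (GRCm38.p6), from 250 bases before the start to 50 after it, and are written 5′ to 3′ on the gene's strand. Capitals mark the GC box GGGCGG or its reverse complement.
Kcnk2 promoter, chr1:189402224-189402523, minus strand: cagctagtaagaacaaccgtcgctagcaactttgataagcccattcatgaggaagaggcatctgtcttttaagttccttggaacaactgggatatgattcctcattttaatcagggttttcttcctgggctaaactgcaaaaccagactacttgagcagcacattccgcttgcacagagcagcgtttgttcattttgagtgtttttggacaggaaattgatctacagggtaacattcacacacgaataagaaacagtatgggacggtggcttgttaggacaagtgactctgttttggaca
Kcnh1 promoter, chr1:192190527-192190826, plus strand: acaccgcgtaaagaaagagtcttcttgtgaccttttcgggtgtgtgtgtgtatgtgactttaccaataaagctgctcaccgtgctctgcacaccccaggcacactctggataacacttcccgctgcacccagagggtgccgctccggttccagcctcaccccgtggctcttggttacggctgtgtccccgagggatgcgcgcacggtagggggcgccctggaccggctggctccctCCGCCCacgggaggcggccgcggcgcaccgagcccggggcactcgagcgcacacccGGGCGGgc
Kcnj2 promoter, chr11:111065914-111066213, plus strand: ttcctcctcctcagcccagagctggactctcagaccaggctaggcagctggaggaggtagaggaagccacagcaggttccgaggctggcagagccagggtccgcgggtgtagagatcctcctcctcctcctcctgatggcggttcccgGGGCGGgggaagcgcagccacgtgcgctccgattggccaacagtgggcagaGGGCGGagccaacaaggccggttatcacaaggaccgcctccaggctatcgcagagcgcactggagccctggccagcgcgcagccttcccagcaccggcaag
Kcnmb1 promoter, chr11:33962763-33963062, plus strand: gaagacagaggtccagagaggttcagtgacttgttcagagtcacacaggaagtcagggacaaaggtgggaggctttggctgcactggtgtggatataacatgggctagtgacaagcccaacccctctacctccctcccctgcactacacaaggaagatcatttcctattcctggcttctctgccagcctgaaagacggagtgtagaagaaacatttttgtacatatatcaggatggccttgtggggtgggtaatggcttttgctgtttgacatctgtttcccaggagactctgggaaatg
Kcnh1 and Kcnj2 each held 2 GC boxes, whereas the windows shown of Kcnk2 and Kcnmb1 held none. The GC box on either strand was found in 35.7% of 32841 promoters of this length, and in 19 of 44 promoters listed for 29 of the 39 genes. TATAAA was in 2 of these 44 and in 13.6% of all promoters, and the AP-1 motif TGANTCA in 3 of 44 and in 7.81%. The CArG box, the element bound by serum response factor in smooth muscle genes, was in 0 of the 44 and in 1.63% of all promoters. A match describes only these letters in this window. None of the 4 motifs was shared by the windows shown of Kcnk2, Kcnh1 and Kcnj2. However, Kcnk2 had a GC box and an AP-1 motif in promoters listed for it but not shown. By gene, Kcnk2, Kcnh1 and Kcnj2 thus each had a listed promoter with a GC box.

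Of the 6 KCa members, grouped by symbol and including the pH-gated Kcnu1, 2 fell past 4-fold in DPCs and 1 in DSCs, and none rose. Kcnn2, a small-conductance channel known from neurons and heart, had 52, 0, 21 and 2 counts. It was at least 16.9-fold lower in high-passage DPCs, or 8.45-fold with a floor of 6 counts, and fell by 2.67 in DSCs (-6.79 to -1.62, from 2 counts). Kcnt2, a sodium-activated channel, had 88, 6, 355 and 286 counts. It fell by 3.48 in DPCs (-5.32 to -2.66) with a difference of -0.57 in DSCs (-0.81 to -0.35), so that high-passage DPCs were lowest and low-passage DPCs also lay below both DSC libraries. Kcnn4, at chr7:24370263-24386690 (GRCm38, plus strand), had 75, 17, 433 and 173 counts. The difference was -1.99 in DPCs (-2.96 to -1.33), just short of 4-fold, and -1.58 in DSCs (-1.85 to -1.33). By contrast Kcnn1 had 158, 135, 133 and 189 counts and Kcnma1 7, 6, 21 and 18, with intervals that included 0 in both cell types. Kcnn3 had 11 counts or fewer in each library. Kcnn4 is known from T cells, macrophages and dividing fibroblasts. The summed level of 6 immune markers was 113.5, 63.7, 164.0 and 92.2 CPM, with Cd3e, which marks T cells, at 0 in all 4 libraries, and their part in the Kcnn4 values was not tested.

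Of the 8 auxiliary subunits, 1 rose past 4-fold in each cell type and none fell as far. It was Kcne4, a single-span subunit that inhibits several Kv channels, with 16, 78, 6 and 50 counts and rises of 2.19 in DPCs (1.53 to 3.20) and 2.46 in DSCs (1.57 to 4.31). Kcnab1 had 1528, 564, 2090 and 2312 counts with a difference of -1.40 in DPCs (-1.54 to -1.26) and -0.12 in DSCs (-0.21 to -0.03, including 0 with halved counts). Kcnab2 had 234, 114, 222 and 214 counts, a difference of -0.99 in DPCs (-1.34 to -0.67). The potassium channel-interacting proteins Kcnip1, Kcnip3 and Kcnip4 did not reach 4-fold with passage, with Kcnip3 nearest at -1.90 in DSCs (-2.56 to -1.41). Kcnq1ot1, the long noncoding RNA transcribed antisense to Kcnq1 in an imprinted domain, had 437, 509, 382 and 537 counts and differed by 0.26 and 0.23, with intervals that included 0 for halved counts. Kcnq1 itself had 5 counts or fewer in each library, and 121 bases of exon overlap between them cannot be assigned to a strand here.

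The differences of Kcnmb1 with passage had opposite signs in the cell types. Kcnmb1, at chr11:33963013-33973641 (GRCm38, plus strand, within the body of Kcnip1 on the other strand), encodes the BK beta subunit that raises calcium sensitivity in smooth muscle. It had 659, 166, 105 and 279 counts. Low-passage DPCs were highest and low-passage DSCs lowest. The difference was -1.94 in DPCs (-2.21 to -1.71), just short of 4-fold, and 1.13 in DSCs (0.82 to 1.48). At passage 3 it was 2.67 higher in DPCs than in DSCs (2.39 to 3.00) and the value at passage 9 was -0.40 (-0.69 to -0.12, including 0 with halved counts). Smooth muscle genes moved with it in part. Myh11, smooth muscle myosin, had 2882, 168, 1063 and 3160 counts and Cnn1, calponin, 5576, 1683, 3353 and 8001, lower at high passage in DPCs and higher in DSCs, as for Kcnmb1. Acta2 had 262118, 67135, 217199 and 197315 counts and Tagln 69654, 21597, 60254 and 65077, and their CPM was lower at high passage in both cell types, while Itga8 rose in both. Des had 11 counts or fewer. The summed level of these 6 markers was 9431, 3492, 7477 and 6514 CPM, and its part in the change of Kcnmb1 was not tested.

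**Figure D4:**
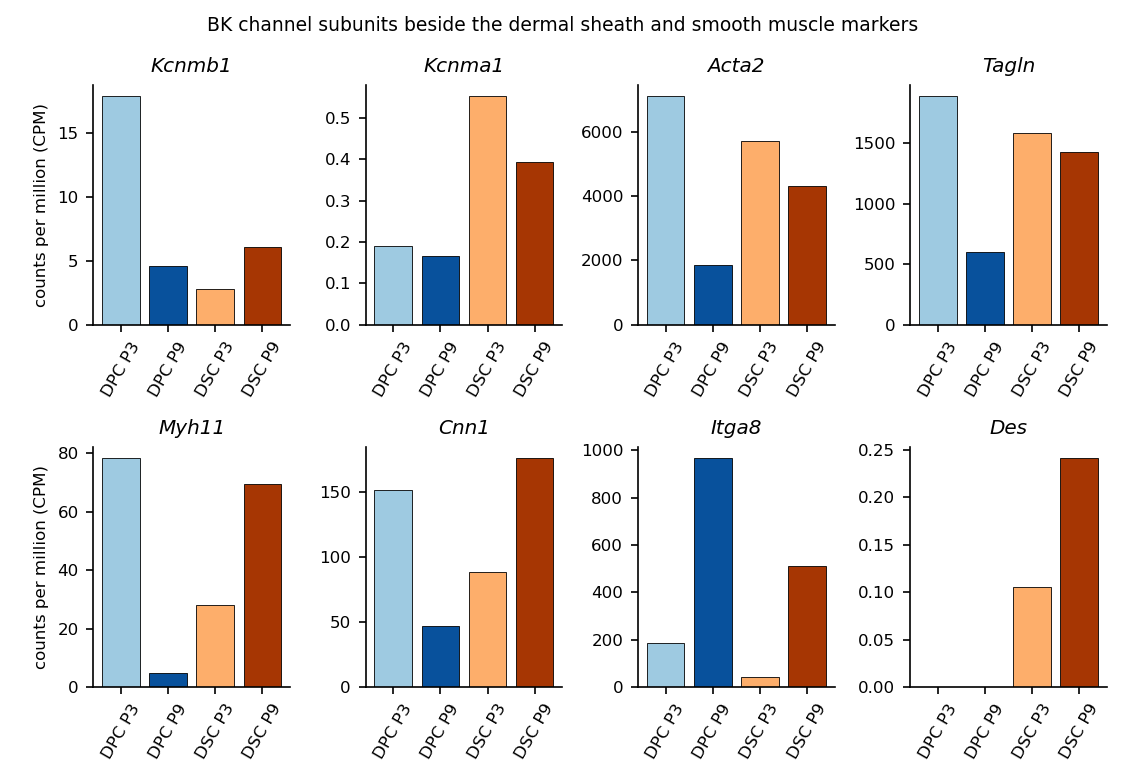
CPM (vertical axes, each from 0) of the BK channel genes Kcnmb1 and Kcnma1 and of the 6 dermal sheath and smooth muscle markers in the 4 libraries (bars; P3 and P9 are passage 3 and passage 9). Kcnmb1, Myh11 and Cnn1 were lower in high- than in low-passage DPCs and higher in high- than in low-passage DSCs, whereas Kcnma1 stayed below 0.554 CPM.

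The cell types were compared at each passage, with differences given as DPC over DSC on the log2 scale. At passage 3, 1 of 39 genes, Kcnmb1, was past 4-fold in favour of DPCs and 5 in favour of DSCs, against 1.52% and 2.77% of all tested genes. Among these were Kcnq5 at -2.95 (-4.49 to -2.17) and Kcnn4 at -2.46 (-2.86 to -2.13). Also among them were Kcna6 at -2.25 (-3.50 to -1.49) and Kcna1 at -2.20 (-3.75 to -1.35). With a prior count of 10, Kcna6 was at -1.75 and Kcna1 at -1.61, below 4-fold. On FPKM with a pseudocount of 0.1, Kcnq5 was at -1.46, also below it. At passage 9, 2 were higher in DPCs, Kcnh1 at 4.37 (3.92 to 5.10) and Kcnj2 at 3.23 (2.93 to 3.63), against 2.50% of all tested genes. There, 4 were higher in DSCs, Kcnt2 at -4.86 (-6.69 to -4.09), Kcns3 at -3.85 (-6.80 to -2.90, from 3 counts in DPCs), Kcnn4 at -2.87 (-3.81 to -2.28) and Kcna3 at -2.30 (-3.96 to -1.43), against 3.91%. With a prior count of 10, Kcna3 was at -1.65 at passage 9, below 4-fold. Kcnn4 was the only gene of the 39 past 4-fold at both passages, higher in DSCs, where 1.00% of all tested genes were. None was past 4-fold in favour of DPCs at both passages, where 0.502% were. The median difference was -0.32 at passage 3 and -0.24 at passage 9, beside 0.00 and -0.01 over all tested genes, and -0.17 at passage 9 with genes at 0 counts set to their bound. The comparisons at passage 9 rest on the high-passage DPC library.

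**Figure D5:**
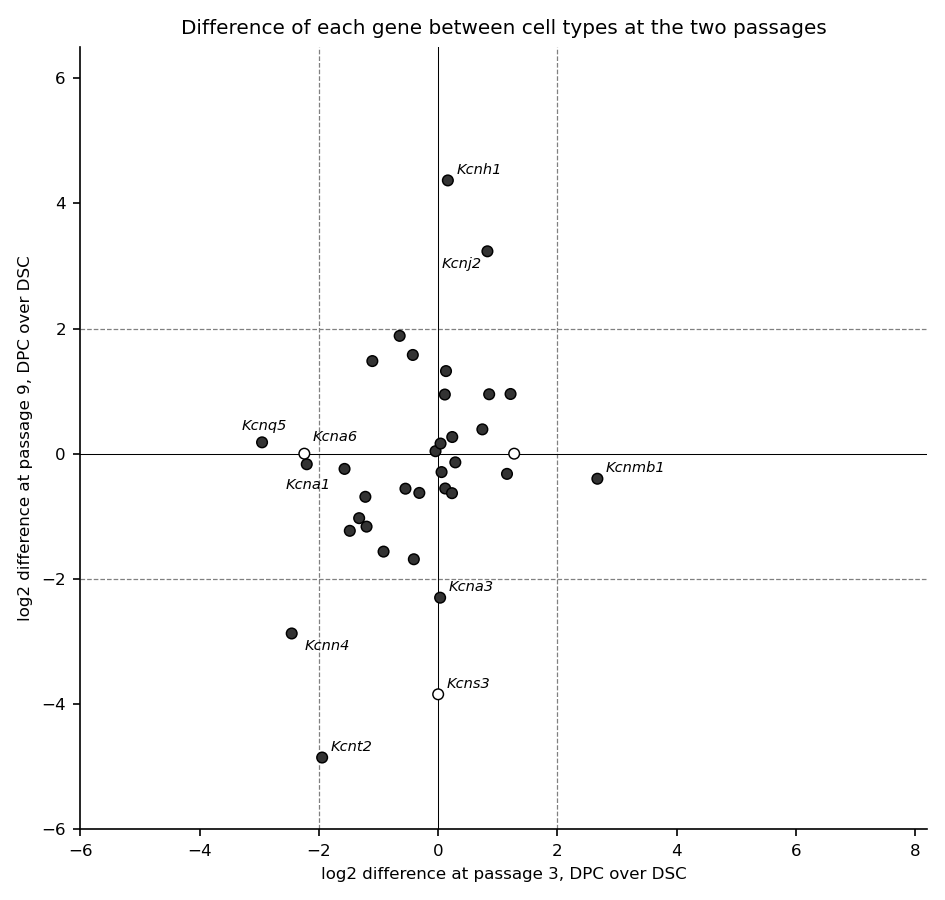
Log2 difference between DPCs and DSCs for 36 of the 39 genes at passage 3 (horizontal axis) and passage 9 (vertical axis), with dashed lines at 4-fold and open points for genes with 3 counts or fewer in at least 1 library; a point stands at 0 on an axis where both counts were 3 or fewer. Kcnn4 was past 4-fold at both passages, at -2.46 and -2.87.

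An additive model of cell type and passage was fitted over all genes. Its residual comes from how far the responses of the cell types differ, not from replicate cultures. By the quasi-likelihood test of edgeR, with p-values adjusted by Benjamini and Hochberg's method, 0 of 39 genes were called for passage, as were 0.00% of all tested genes. The smallest adjusted p among the 39 was 0.192, for Kcnh2 and Kcns3. At an unadjusted p under 0.05 there were 13 of the 39, 8 higher and 5 lower, or 33.3%, beside 16.9% of all tested genes. DESeq2's Wald test called 5, of which 4 were higher, Kcnk2, Kcnh1 and Kcnh2 among them, and Kcnn4 was lower, beside 6.06% of all genes with an adjusted p from it.

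Other genes that handle potassium and the membrane voltage were read from lists of such genes. For comparison, 5.58% of all tested genes rose and 4.36% fell past 4-fold in DPCs, and 2.67% and 1.16% in DSCs. Of 9 tested sodium pump genes, 2 rose and 2 fell past 4-fold in DPCs, and 1 rose and 1 fell in DSCs. The beta subunit Atp1b1 had 682, 9295, 212 and 815 counts, a rise of 3.80 in DPCs (3.69 to 3.92) and a difference of 1.67 in DSCs (1.46 to 1.90). Of 5 tested cation-chloride cotransporters, Slc12a5, which exports potassium with chloride, rose in both cell types, by 2.94 in DPCs (2.45 to 3.66) and 2.56 in DSCs (2.01 to 3.37), from 27, 215, 22 and 167 counts. Of 12 tested voltage-gated calcium channel genes, 2 rose past 4-fold in DPCs and 0 in DSCs, and none fell as far. Cacnb4 had 68, 477, 72 and 45 counts and rose by 2.81 in DPCs (2.48 to 3.24), and Cacna2d3 had 0, 31, 6 and 6. Of 8 other auxiliary proteins, 2 were tested, and Dpp6, which partners the A-type Kv channels, had 2, 2, 0 and 110 counts. Like Kcns3, it exceeded 3 counts only in high-passage DSCs.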

How the data were processed

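The authors prepared libraries from poly-T selected mRNA and sequenced paired ends on an Illumina HiSeq instrument. The methods name the NEBNext Ultra kit and the labels the TruSeq kit. The authors deposited raw counts per gene and, for each library, FPKM, which is scaled for transcript length and depth. The submitters' processing notes name Bowtie 0.12.2 and builds mm8 and mm9 with no role. However, 94.1% of 51633 gene IDs had the position of GENCODE M21 (GRCm38), as had 35 of the 39 genes. The counting program and its use of strand are not given in the sources used here. A count of 2 was given for 1339 genes and a count of 3 for 583 in DPCs at passage 3, as where both mates of a pair are counted, so intervals were also computed from counts divided by 2.

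The members and gene lists were chosen with earlier results of these data known. Counts were scaled with TMM in edgeR 4.0.16 (R 4.3.3), fold changes were differences of log2 CPM (prior count 2), and genes with a mean raw count under 10 were left out. A gene at 0 counts was set to 3 only for the bounds, the plotted fold changes and the medians said to use bounds. The calls used the count of 0 with the prior count. Members named in full were the KATP, BK and Kcnn genes, members changed 4-fold with passage with at least 30 counts in a library, members that differed 4-fold between cell types at both passages, the 10 of highest mean FPKM and noncoding members, 26 in all. Others, named for comparison, were chosen after their values were seen. The additive model was fitted with edgeR and with DESeq2 1.42.0. Alternatives were total count, upper-quartile and DESeq2 scaling, prior counts of 0.5 and 10, minimum mean counts of 100 and none, and FPKM with pseudocounts of 0.1 and 1. Level order by CPM per kilobase of exon was chosen after seeing the data. The values of 3 members are not reported here. Figures were drawn with matplotlib 3.10.9.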

Additional observations from a re-analysis of the deposited data

Results flagged for a closer look

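For 4 genes the passage change had opposite signs in DPCs and DSCs and neither counting interval included 0. The differences between the cell types (DPC change minus DSC change, log2) were not tested, since each group was 1 library. The difference was -3.07 for Kcnmb1, from changes of -1.94 in DPCs and 1.13 in DSCs. For Kcnj15 it was 2.53, from changes of 2.13 and -0.40, and the DSC interval included 0 with halved counts. For Kcnab3, a beta subunit with 53, 140, 74 and 58 counts, it was 2.0, from changes of 1.41 and -0.60, and the DSC interval again included 0 with halved counts. For Kcnd1 it was -0.86, from changes of -0.45 and 0.41.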

How the results depend on the processing

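Of 728 fold changes of named genes under other scalings, prior counts or FPKM, 724 kept their direction. Of 231 that passed 4-fold in the reported values, 170 still did and 0 reversed. Total-count scaling, upper-quartile scaling and a prior count of 0.5 moved no count of genes by over 1.5 times. For the other settings, the share over all tested genes is not given here, so their counts cannot be read against a background. All tested genes numbered 12192 with a minimum mean count of 100 and 27339 with no minimum, in place of 16734. With DESeq2 size factors, 1 gene in place of 2 was at least 4-fold lower in both cell types. With a prior count of 10, 2 were lower in DPCs, 1 higher and 1 lower in DSCs, 3 higher in DSCs at passage 3, and 0 higher and 0 lower in both cell types, as low counts are shrunk. With a minimum mean count of 100, fewer genes remained: 5 were higher and 1 lower in DPCs, 1 higher and 0 lower in DSCs, 1 higher and 0 lower in both, and 2 higher in DSCs at each passage. The medians became -0.15 for DPCs, 0.12 for the cell types at passage 3 and -0.11 at passage 9. With no minimum, 7 were lower in DPCs, 8 higher in DSCs, 4 higher in DPCs and 10 higher in DSCs at passage 3, and 5 and 7 at passage 9, with medians between cell types of 0.0 at passage 3 and -0.10 at passage 9. With FPKM and a pseudocount of 0.1, 2 were lower in DPCs, 1 higher and 0 lower in DSCs, 1 higher in DSCs at passage 3, and 0 higher and 0 lower in both. The medians were -0.021 for DSCs and -0.12 at passage 9. With a pseudocount of 1, 1 was higher in DPCs and 0 passed in any other comparison. The medians were -0.0035 for DSCs, -0.068 at passage 3 and -0.018 at passage 9. DESeq2 called 5 genes for passage where edgeR called 0; the cause was not tested. With halved counts, 14 intervals of named genes came to include 0. No scaling moved the median of all genes by over 0.1. No paired analysis was possible because each group was 1 library without a replicate number to pair by, although the additive model compares the passages within cell types. Depth limits genes with few counts in a library.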

Other observations

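FPKM and counts gave different ratios for 3 of the 39 genes, by over 1 on the log2 scale, in 5 of 144 ratios compared. Kcnu1, a pH-gated channel known from sperm, had 6, 12, 17 and 26 counts but 0.0551, 0.407, 0.106 and 0.451 FPKM, a log2 ratio with passage of 2.89 in DPCs by FPKM against 1.04 by CPM. The others were Kcnh2 and Kcnd3. Exon bases were shared with a gene on the opposite strand for 17 of the 39 genes and on the same strand for 1, and for 21 no exon base was shared.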
